A study of Homo sapiens with 6 samples.

Results

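The 10 genes described here serve to carry cystine into the cell, turn it into glutathione and spend that glutathione on lipid peroxides. Some of them instead recycle glutathione, break it down or act in the control of such genes. The 10 are SLC7A11, SLC3A2, GCLC, GCLM, GSS, GSR, GPX4, CHAC1, NFE2L2 and KEAP1. They were taken by symbol from a deposited table of 62703 genes, each symbol matched 1 row, and all 10 were among the 12645 genes with enough signal to test. Transcripts were sequenced from total RNA of 786-O, an established line from a human kidney tumour of the clear cell type (ccRCC), known to lack functional VHL protein and to keep HIF-2α active. The 6 samples formed 2 groups of 3: control cells, whose genotype is labelled WT and whose titles carry NC, and cells labelled OGT overexpressed, where OGT is the transferase that places single N-acetylglucosamine sugars on nuclear and cytosolic proteins. Both groups share the 786-O background and the same culture medium. The sources used here do not give how OGT was introduced, whether the cells are 1 clone or a pool, or whether the replicates are separate cultures. The p-values therefore cover the spread among these libraries alone, which could be technical. The series title sets OGT and HIF-2α beside ferroptosis, a form of cell death driven by iron and oxidised membrane lipids, and the comparison asks how the central ferroptosis defence was expressed when OGT was raised.

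Cystine, the oxidised dimer of cysteine, enters the cell through system xc-, an antiporter in which SLC7A11 is the transporting light chain and SLC3A2 the heavy chain that brings it to the membrane. Cysteine is joined to glutamate by glutamate-cysteine ligase, made of the catalytic subunit GCLC and the modifier subunit GCLM, and glutathione synthetase (GSS) adds glycine. GPX4, a selenoprotein, uses glutathione to reduce phospholipid hydroperoxides, and glutathione reductase (GSR) restores the oxidised glutathione with NADPH. CHAC1 breaks glutathione down and is a known target of the transcription factor ATF4. NFE2L2 encodes NRF2, the transcription factor that drives several of these genes through antioxidant response elements, and KEAP1 encodes the adaptor that marks NRF2 for degradation.

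The genes of the axis moved in both directions. With OGT overexpression 5 of its genes rose (SLC7A11, GCLC, NFE2L2, GSR and SLC3A2), 3 fell (GPX4, GSS and KEAP1), and 2 (GCLM and CHAC1) did not pass the test. The test was limma on log2(TPM + 1) with Benjamini-Hochberg adjustment over all tested genes, where a call is an adjusted p below 0.05. TPM is a transcript abundance per length, scaled to a fixed library total. Values after ± are SDs over 3 libraries. In the same fit 48.8% of all tested genes were called, 39.1% higher and 9.7% lower, so 5 rising genes of 10 is close to the share of all genes, and 3 falling genes is a small count. The 3 OGT libraries lay above the 3 control libraries for 6 of the 10 genes (46.2% of all tested genes) and below them for 3 (12.4%). The median log2 change of the 10 genes was 0.27, and that of all tested genes was 0.30. Changes on this scale are understated for low genes. The median of 0.30 was not shared evenly among genes. It was 0.695 for genes of at most 45% GC and 0.00 for those above 60%, as described below. Scaling moves the balance of calls: quantile normalization called 38.0% of all genes (20.2% higher, 17.8% lower) with 5 of the 10 higher and 3 lower, and centring each library on its median called 39.6% (15.3% higher, 24.2% lower) with 4 higher and 4 lower.

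**Figure D1:**
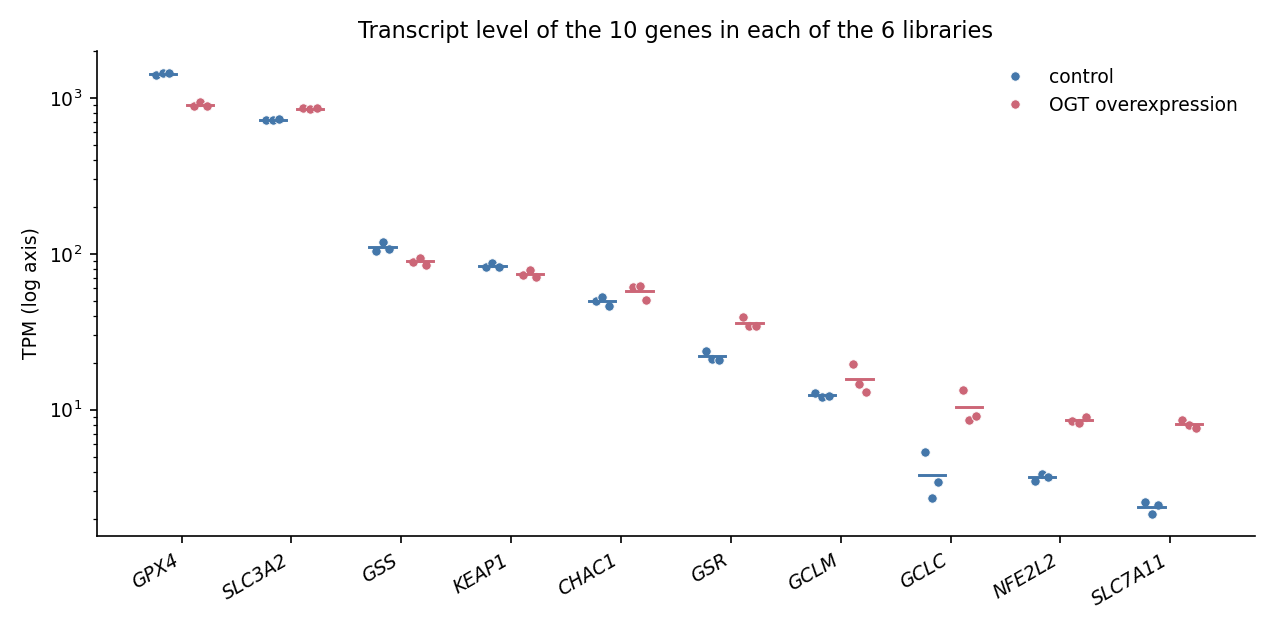
TPM (log axis) of each gene in each library, with 3 control libraries (blue) and 3 OGT libraries (red) per gene and a bar at each group mean, genes ordered by control mean. GPX4 and SLC3A2 stand far above the other 8 genes, and the largest gaps between the groups are at the low end, for GCLC, NFE2L2 and SLC7A11.

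The OGT transcript, the check of the labels, was 22.57 to 23.62 TPM in the control libraries and 270.87 to 352.92 TPM in the OGT libraries. Library totals ran from 993935.5 to 996951.6 TPM, and TPM keeps no read depth, so counting intervals cannot be given. All 7 kidney and carcinoma markers (among them PAX8, PAX2, VIM and KRT8) reached 1 TPM in at least 3 libraries, with sums of 3777.3 to 4031.3 TPM in control and 4753.2 to 4776.5 TPM in OGT libraries. None of the 3 leukocyte, 4 endothelial and 4 fibroblast markers did, but control replicate 1 stood apart with PTPRC at 12.23, PECAM1 at 4.22 and KDR at 3.91 TPM. Summed leukocyte markers were 0.22 to 12.65 TPM in control and 0.24 to 0.39 TPM in OGT libraries, endothelial ones 0.85 to 8.68 and 0.25 to 2.77, and fibroblast ones 0.09 to 0.82 and 0.55 to 1.85. CDH5 was listed at 0 throughout. The part of these transcripts in the results was not tested. Without control replicate 1 the same 5 genes rose, and GPX4 and GSS fell, while KEAP1 was not called (limma adjusted p = 0.072).

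As these are bulk samples, a change in the share of cells that carry a transcript and a change in its amount per cell cannot be told apart. TPM divides by transcript length, so levels can be ranked between genes. In control cells the order was GPX4, SLC3A2, GSS, KEAP1, CHAC1, GSR, GCLM, GCLC, NFE2L2 and SLC7A11, and only GCLC and NFE2L2 overlapped as neighbours. The same order of means held in the OGT cells, but there GCLM, GCLC and NFE2L2 each overlapped with the next gene in line. GPX4 stood above 99.15% of tested genes in control cells and SLC3A2 above 98.4%, whereas SLC7A11 stood above only 23.8%.

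Promoter sequence was looked at because NRF2 and ATF4 are known regulators of several of these genes. RefSeq windows on GRCh38.p14, from 250 bases before to 50 bases after a transcript start, matched 7 of the 10 genes in 13 windows, and SLC7A11, GSS and GSR had none. The antioxidant response element core TGACNNNGC was searched on both strands; it overlaps the AP-1 element. It was found for SLC3A2, GCLM and KEAP1, in 3 of the 13 windows, and in 13.35% of all 35116 windows of that length (14.7% of windows of tested genes). The ATF4 element TGATGNAA was found for SLC3A2 and CHAC1, in 2 of the 13 windows, and in 3.62% of all windows (1.94% for tested genes). The hypoxia element core was found as GCGTG in 11 of the 13 windows (36.5% of all windows, 48.75% for windows of tested genes). Each of the 7 genes had it in at least 1 window, a count per gene that these shares of windows do not match. The 13 windows had 61.0 to 79.0% GC, and the part of base composition in these counts was not tested. As ACGTG the core was in 2 of the 13 windows, both of GPX4 (21.4% and 25.7%). Those 2 GPX4 windows overlap and hold the same ACGTG site and the same GCGTG site, so these window counts include repeats. Each stretch below is 30 bases on the gene's strand, with the match in capitals, and each overlaps an exon that GENCODE release 29 annotates for that gene. Distances run from the first base of the match to the transcript start of its window, and the last 2 stretches overlap. For SLC3A2, CHAC1 and KEAP1 the bases before that start lie inside the annotated gene body, so it is an internal start. The SLC3A2 window at the beginning of the gene (chr11:62855859-62856158) held neither the antioxidant nor the ATF4 element.
SLC3A2, chr11:62881652-62881681, plus strand, antioxidant element, 37 bases before the start: cgagggtgggTGACTCAGCgtcctccttcc
SLC3A2, chr11:62881719-62881748, plus strand, ATF4 element on the other strand, 38 bases after the start: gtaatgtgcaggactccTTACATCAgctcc
GCLM, chr1:93909445-93909474, minus strand, antioxidant element on the other strand, 34 bases before the start: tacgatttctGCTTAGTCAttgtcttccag
CHAC1, chr15:40953251-40953280, plus strand, ATF4 element on the other strand, 209 bases before the start: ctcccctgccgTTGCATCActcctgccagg
KEAP1, chr19:10502806-10502835, minus strand, antioxidant element, 54 bases before the start: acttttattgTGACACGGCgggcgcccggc
KEAP1, chr19:10502783-10502812, minus strand, antioxidant element on the other strand, 31 bases before the start: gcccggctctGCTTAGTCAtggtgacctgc
These matches are descriptions of the sequence and not measured binding sites. The genes that hold the antioxidant core differed in their change: SLC3A2 rose, GCLM was not called and KEAP1 fell.

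SLC7A11, the cystine-carrying subunit (ENSG00000151012, chromosome 4, 138164097 to 138242349, minus strand, GENCODE release 29 on GRCh38), had the largest rise of the 10. It was 2.56, 2.14 and 2.46 TPM in the control libraries and 8.65, 8.0 and 7.68 TPM in the OGT libraries. The lowest OGT library was well above the highest control. Its mean rose 3.4-fold, from 2.39 ± 0.219 to 8.11 ± 0.494 TPM (SD, n = 3), a log2 change of 1.43 (SE 0.145, 95% interval 1.08 to 1.77, limma adjusted p = 3.96e-04). Of all tested genes, 97.7% had a smaller log2 change. SLC7A11-AS1, which shares 865 exonic bases on the other strand, was listed at 0 in every library.

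SLC3A2, its heavy chain (ENSG00000168003, chromosome 11, 62856102 to 62888875, plus strand), was 716.44, 717.14 and 729.55 TPM in control and 855.98, 847.27 and 858.56 TPM in OGT libraries. The groups were far apart against a narrow spread, yet the rise was small, 1.18-fold. The log2 change was 0.24 (SE 0.0292, adjusted p = 7.42e-04), or -0.06 relative to the median of all genes. After median centring the change turned to -0.145 and was called lower (adjusted p = 0.0253). SLC3A2 also serves other light chains: of 6 listed partners 3 were tested, 2 rose and 1 fell (all genes: 39.1% and 9.7%). After the correction for GC content and length described below it was 1 and 1 (all genes: 15.6% and 11.9%). SLC7A5, the large neutral amino acid carrier LAT1, was 373 ± 13.5 TPM in control and rose to 548 ± 40.3 TPM (log2 change 0.55, adjusted p = 5.42e-04; 0.0814 after median centring). SLC7A6 rose from 11.4 ± 2.79 to 19.0 ± 4.21 TPM (0.70) and SLC7A7 fell from 39.97 ± 2.6 to 31.8 ± 2.06 TPM (-0.32), both partners for cationic amino acids. The call of SLC7A6 ended when OGT replicate 1, OGT replicate 2 or control replicate 2 was left out (adjusted p between 0.0574 and 0.0978) and after the correction (0.765), and that of SLC7A7 without control replicate 2 or 3 (0.0517 to 0.0563). SLC7A8 did not pass the filter, and SLC7A10 and SLC7A13 were listed at 0.

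The 2 subunits of glutamate-cysteine ligase, the step that limits glutathione synthesis, differed. GCLC (ENSG00000001084, chromosome 6, 53497341 to 53616970, minus strand) was 5.32, 2.73 and 3.43 TPM in control and 13.38, 8.54 and 9.12 TPM in OGT libraries. The groups did not overlap, and the highest library of each group was replicate 1. AL033397.1 shares 529 exonic bases on the same strand and reached at most 0.02 TPM. The mean of GCLC rose 2.7-fold (log2 change 1.24, SE 0.25, 95% interval 0.65 to 1.84, adjusted p = 0.00624). GCLM (ENSG00000023909, chromosome 1, 93885205 to 93909456, minus strand) was 12.87, 12.02 and 12.26 TPM in control and 19.60, 14.56 and 12.90 TPM in OGT libraries. Its lowest OGT library was barely above its highest control. GCLM was not called, with a log2 change of 0.30 (95% interval -0.07 to 0.67, adjusted p = 0.154), and its sign turned under quantile normalization (-0.05) and median centring (-0.09).

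GSS (ENSG00000100983, chromosome 20, 34928433 to 34956027, minus strand), which completes glutathione, was 103.69, 119.74 and 106.66 TPM in control and 88.50, 94.62 and 85.17 TPM in OGT libraries. All OGT libraries were lower. The mean fell by 18.7%, with a log2 change of -0.295 (SE 0.0721, adjusted p = 0.0137). As deposited, then, the catalytic subunit of the synthesis route rose, the modifier subunit was not called and the last enzyme fell. After the correction for GC content and length described below, GCLC was not called (limma adjusted p = 0.105). In that fit GCLM was called lower (0.0482) and GSS still fell.

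**Figure D2:**
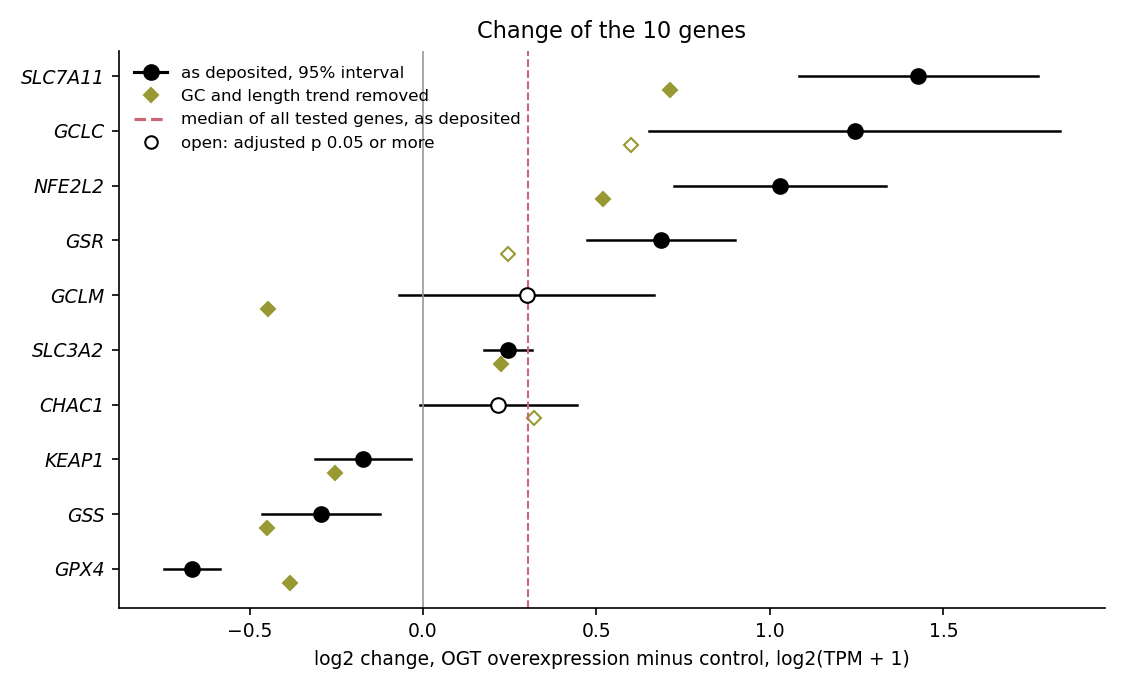
Log2 change of each gene (OGT overexpression minus control, on log2(TPM + 1)) with its 95% interval (black circles and lines) and the change corrected for GC content and transcript length (diamonds); open symbols have an adjusted p of 0.05 or more. SLC7A11 is at the top at 1.43 and GPX4 at the bottom at -0.67, GCLM, SLC3A2 and CHAC1 lie near the median of all genes (dashed line, 0.30), and the GCLM diamond lies below 0.

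GPX4, the lipid hydroperoxidase (ENSG00000167468, chromosome 19, 1103926 to 1106791, plus strand), had the largest fall of the 10 as deposited; after the correction for GC content and length described below, GSS (-0.449) and GCLM (-0.447) were lower than GPX4 (-0.384). It was 1410.69, 1448.32 and 1441.57 TPM in control and 889.68, 936.24 and 884.39 TPM in OGT libraries. The gap between the groups was far wider than the SD within either, 20.1 and 28.5 TPM. The mean fell by 37.0% (log2 change -0.67, SE 0.0344, 95% interval -0.747 to -0.585, adjusted p = 4.53e-05), and only 5.08% of tested genes had a lower log2 change. Despite the fall GPX4 stayed the most abundant of the 10, with 903 TPM against 854 TPM for SLC3A2.

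GSR (ENSG00000104687, chromosome 8, 30678061 to 30727999, minus strand), which recycles glutathione, was 23.79, 21.29 and 20.86 TPM in control and 39.19, 34.25 and 34.55 TPM in OGT libraries. Every OGT library was higher. The mean rose 1.64-fold, with a log2 change of 0.69 (SE 0.0902, adjusted p = 0.00107).

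CHAC1 (ENSG00000128965, chromosome 15, 40952962 to 40956519, plus strand), the glutathione-degrading enzyme, was 49.84, 52.72 and 46.56 TPM in control and 61.15, 62.47 and 50.72 TPM in OGT libraries. OGT replicate 3 fell inside the control range, and CHAC1 was the only gene of the 10 whose groups overlapped. It was not called (log2 change 0.22, 95% interval -0.01 to 0.44, adjusted p = 0.101). Without OGT replicate 3 it was called (0.31, adjusted p = 0.0188), and after median centring the sign turned (-0.17, adjusted p = 0.202).

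NFE2L2, the gene of NRF2 (ENSG00000116044, chromosome 2, 177227595 to 177392697, minus strand), was 3.51, 3.89 and 3.68 TPM in control and 8.43, 8.28 and 9.04 TPM in OGT libraries. The groups were well separated, and the mean rose 2.32-fold (log2 change 1.03, SE 0.129, adjusted p = 8.82e-04). AGPS shares 54 exonic bases with NFE2L2 on the other strand and was 2.58 to 3.06 TPM in control and 8.22 to 10.78 TPM in OGT libraries. AC019080.1 shares 1054 exonic bases on the same strand and was 0.41 to 0.61 and 0.63 to 1.64 TPM. AC079305.1 shares 190 on the other strand and reached at most 0.65 TPM. Strand use in the counting is not stated, so NFE2L2 is uncertain to that extent, and the part of these genes in its value was not tested. KEAP1, the inhibitor (ENSG00000079999, chromosome 19, 10486120 to 10503741, minus strand), was 82.89, 87.06 and 82.09 TPM in control and 73.58, 78.50 and 71.25 TPM in OGT libraries. The groups did not overlap, and the mean fell by 11.4% (log2 change -0.17, SE 0.0584, adjusted p = 0.0446). Leaving out any 1 library other than OGT replicate 2 ended this call, with adjusted p between 0.0696 and 0.135, as did testing without a filter on low values (0.09).

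Ratios of 2 genes within a library do not depend on how the library was scaled, so 5 were computed for pairs that act together. For each, the 3 OGT libraries lay on 1 side of the 3 control libraries, and the two-sided exact permutation p = 0.1 (also 0.1 after adjustment over the 5 ratios) is the smallest that 3 against 3 allows. SLC7A11 transcript was 0.00298 to 0.00357 of SLC3A2 transcript in control and 0.008945 to 0.0101 of it in OGT libraries, a log2 difference of 1.52. The light chain stayed far less abundant as transcript than its heavy chain in both groups. GCLM exceeded GCLC by 2.42, 4.40 and 3.57 times in control and by 1.465, 1.705 and 1.41 times in OGT libraries (-1.14). The transcripts of the 2 ligase subunits thus came closer to equal levels.

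GSS exceeded GCLC by 19.5, 43.9 and 31.1 times in control and by 6.61, 11.1 and 9.34 times in OGT libraries (log2 difference -1.76). The share of GSR relative to GPX4 ran from 0.0145 to 0.0169 in control libraries and from 0.0366 to 0.04405 in those with OGT (1.38). KEAP1 exceeded NFE2L2 by 23.6, 22.4 and 22.3 times in control and by 8.73, 9.48 and 7.88 times in OGT libraries (-1.39). Of the 5, this ratio had the narrowest control spread, with an SD of 0.046 on the log2 scale.

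**Figure D3:**
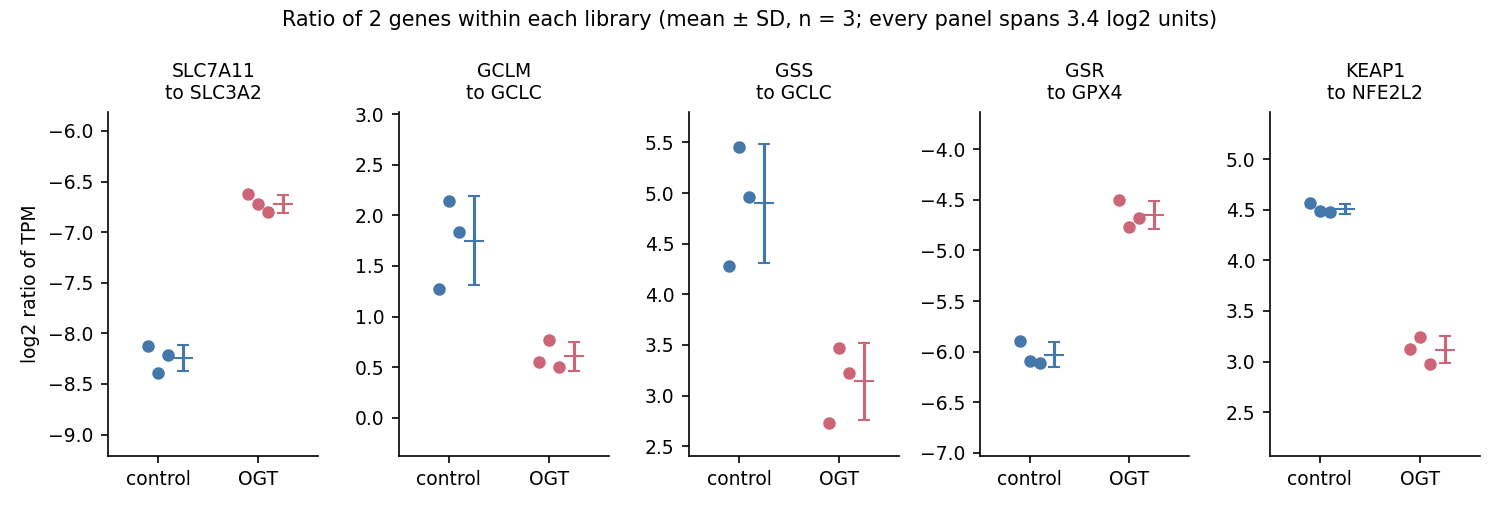
Log2 of the TPM ratio of 2 genes in each library, control (blue) and OGT (red), with mean ± SD over 3 libraries beside the points; each panel spans the same number of log2 units. SLC7A11 to SLC3A2 and GSR to GPX4 are higher in the OGT libraries, the other 3 ratios are lower, and no panel has overlapping groups.

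Changes across all genes varied with the base composition and length of the transcripts, and the 10 genes followed that trend in part. Across 12348 tested genes with a GENCODE transcript, which are not independent replicates, the Spearman correlation of the log2 change was -0.47 with GC content and 0.39 with length. The median log2 change was 0.695 for genes of at most 45% GC, 0.25 for those above 45% and up to 60%, and 0.00 above 60%. SLC7A11 (35.4% GC, 9645 bases) and GCLC (44.3%, 3813 bases) rose and are in the class of at most 45% GC. NFE2L2 (45.6%, 2853 bases) and GSR (48.15%, 3192 bases) also rose and are in the lower part of the middle class. GPX4 (65.2%, 1002 bases), KEAP1 (60.3%, 2955 bases) and GSS (54.55%, 2702 bases) fell and are GC-richer. GCLM (37.3%, 4857 bases) lies low for its composition. SLC3A2 (57.4%, 2222 bases) and CHAC1 (62.6%, 1849 bases) are both GC-richer than GSS, yet SLC3A2 rose and CHAC1 was not called. The GENCODE transcript is the longest of each gene and need not be the one expressed.

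**Figure D4:**
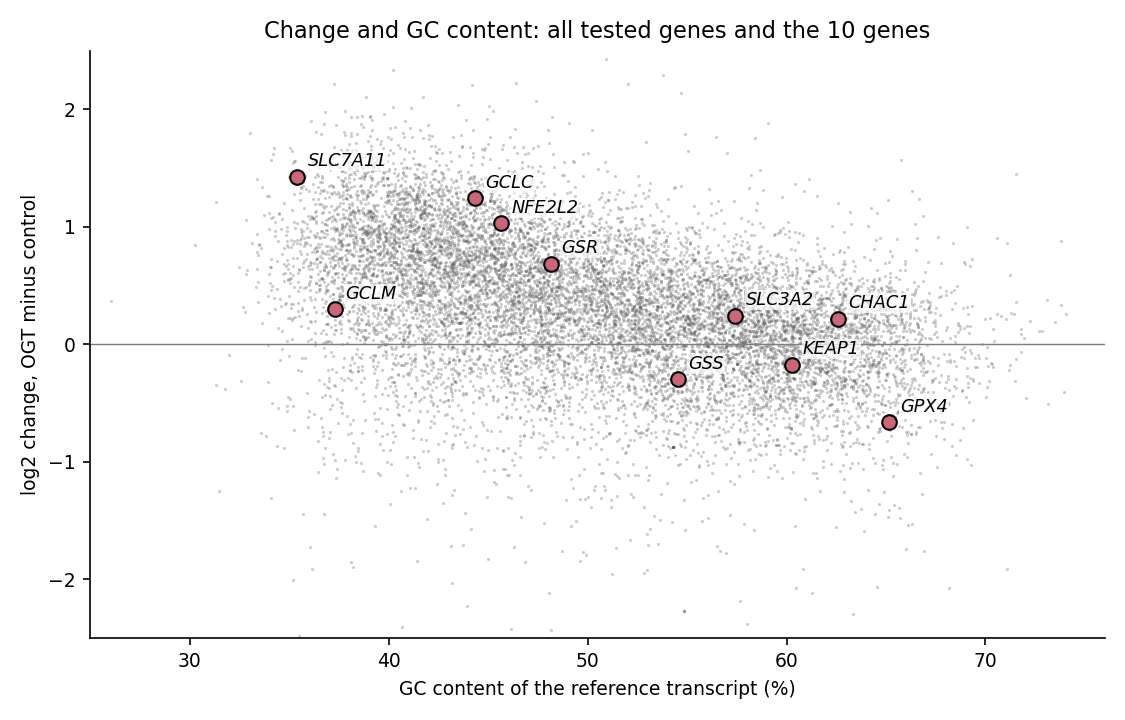
Log2 change (OGT overexpression minus control, on log2(TPM + 1)) against GC content of the reference transcript for 12348 tested genes (grey; 12 genes with a change beyond 2.5 in size are outside the axis) and the 10 genes of the axis (red). The cloud slopes down from left to right, from SLC7A11 at 35.4% GC to GPX4 at 65.2% GC.

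Once the trends on GC content and length were removed library by library, SLC7A11, NFE2L2 and SLC3A2 still rose and GPX4, GSS and KEAP1 still fell. In that fit 27.5% of all genes were called, 15.6% higher and 11.9% lower. The corrected log2 changes were 0.71 for SLC7A11 (adjusted p = 0.00104), 0.52 for NFE2L2 (0.0192) and 0.22 for SLC3A2 (0.00306). They were -0.38 for GPX4 (adjusted p = 7.1e-04), -0.45 for GSS (0.00676) and -0.25 for KEAP1 (0.0215). GCLC (0.60, adjusted p = 0.105) and GSR (0.245, 0.0639) lost their calls, and CHAC1 was 0.32 (0.0672). GCLM turned to -0.45 and was called lower (adjusted p = 0.0482). The correction was made on log2(TPM + 1), so ratios are compared on that scale. The log2 difference of SLC7A11 to SLC3A2 went from 1.18 to 0.49, and that of GCLM to GCLC from -0.946 to -1.05. The corrected difference was -1.05 for GSS to GCLC, 0.63 for GSR to GPX4 and -0.77 for KEAP1 to NFE2L2. The part of base composition and length in the deposited changes was not tested beyond this.

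Genes around the axis were taken from 11 lists drawn up for this work, 122 genes of which 98 were tested. Of these, 43 were higher and 15 lower, beside 39.1% and 9.7% of all tested genes, with a median log2 change of 0.22 against 0.30 for all tested genes. The split was 21 higher and 16 lower after the GC and length correction, beside 15.6% and 11.9% of all genes. It was 25 and 23 under quantile normalization (20.2% and 17.8%), and 13 and 40 with median centring (15.3% and 24.2%). The 24 untested genes reached at most 1.52 TPM in any library.

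**Figure D5:**
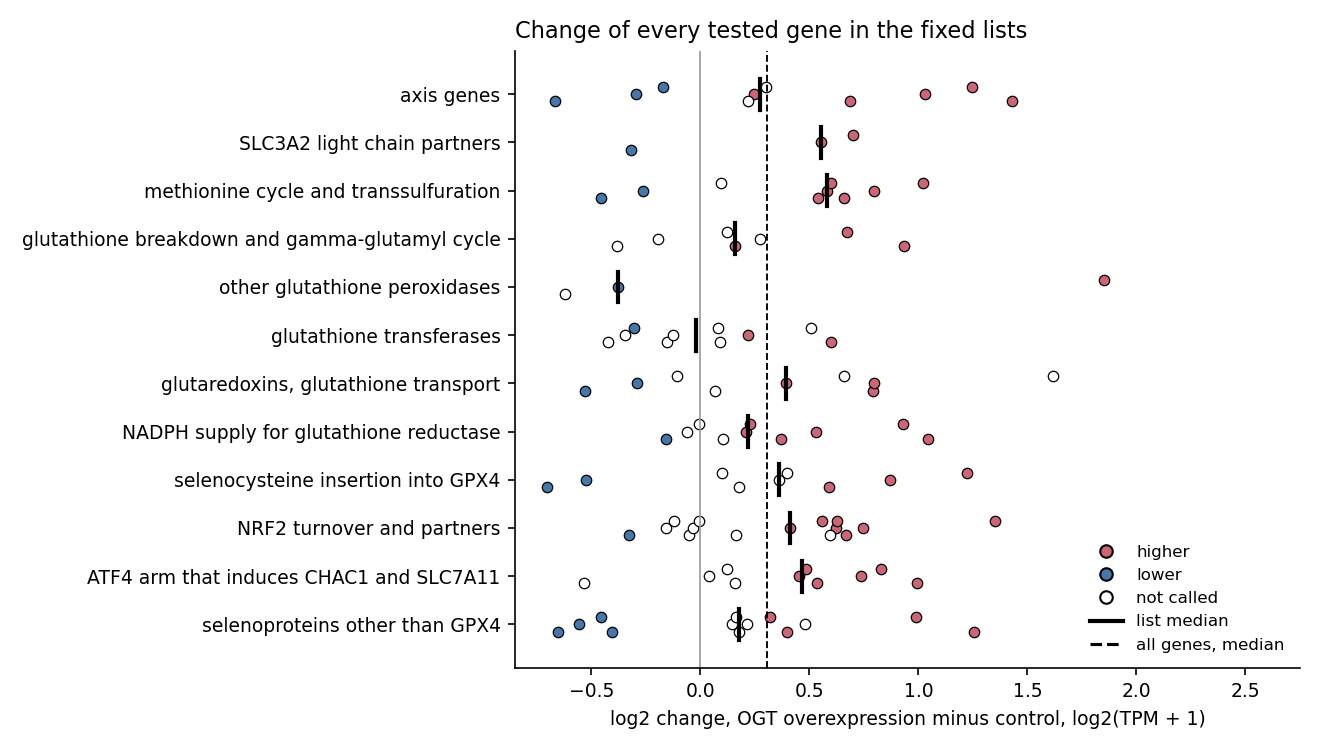
Log2 change of every tested gene in each list (1 point per gene; red higher, blue lower, white not called), with the list median (black bar) and the median of all tested genes (dashed line, 0.30). Most lists hold genes on both sides of 0. The ATF4 arm and the glutathione breakdown list hold no gene called lower, where 9.7% of all tested genes were called lower.

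In the methionine cycle and transsulfuration pathway, the internal source of cysteine, 6 of 9 tested genes rose and 2 fell, and 1 rose and 2 fell after the correction (39.1% and 9.7% of all genes before it, 15.6% and 11.9% after it). AHCYL1, a relative of AHCY known for binding inositol trisphosphate receptors, rose from 28.6 ± 1.07 to 59.1 ± 4.18 TPM (log2 change 1.02, corrected 0.51). It was the 1 gene of this list still called higher after the correction. MAT2A and MAT2B, the subunits of methionine adenosyltransferase, rose by 0.60 (72.3 to 110 TPM) and 0.80 (9.15 to 16.55 TPM), but neither was called after the correction (adjusted p = 0.211 and 0.238). The homocysteine-forming enzyme AHCY fell from 284 ± 8.23 to 207 ± 3.11 TPM (-0.455, corrected -0.52). CBS, the first transsulfuration enzyme, fell from 148.5 ± 8.98 to 124 ± 9.8 TPM (-0.26, corrected -0.31). Its call ended when OGT replicate 1, OGT replicate 3, control replicate 2 or control replicate 3 was left out (adjusted p between 0.0532 and 0.07). CTH, of the same pathway, rose from 16.85 ± 3.85 to 26.8 ± 2.77 TPM (0.66, adjusted p = 0.0189). After the correction CTH was not called (0.19, adjusted p = 0.474).

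Among 7 tested genes of glutathione breakdown limma called 3 higher and 0 lower, and 1 and 0 after the correction (all genes: 39.1% and 9.7%, then 15.6% and 11.9%). At an unadjusted p below 0.05 the count of lower genes was also 0, which is near the share of all genes for a list this short. LAP3, an aminopeptidase gene, had 33.6 ± 0.563 TPM in control and rose to 65.0 ± 3.01 TPM (log2 change 0.93, adjusted p = 9.77e-05, corrected 0.66). GGCT, which acts on γ-glutamyl amino acids, rose from 11.5 to 18.9 TPM (0.67), with no call after the correction (adjusted p = 0.0983), quantile normalization (0.102) or median centring (0.17). ANPEP went from 258 to 288 TPM (0.16). Its call was lost in each fit that left out a library except without OGT replicate 3 (adjusted p from 0.0526 to 0.119). The sign of ANPEP turned after the correction (-0.01) and after median centring (-0.23), where it was called lower (adjusted p = 0.00739). CHAC2, the constitutive relative of CHAC1, had 1.42 ± 0.598 TPM in control and 1.62 ± 0.551 TPM in OGT libraries, with no call (adjusted p = 0.729).

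Of the other glutathione peroxidases GPX1 and GPX8 moved in opposite directions, as they did after the correction. GPX1, the abundant cytosolic selenoenzyme, was 1046 ± 12.8 TPM in control and fell to 804 ± 30.2 TPM with OGT (log2 change -0.38, adjusted p = 3.39e-04, corrected -0.13 with adjusted p = 0.0499). GPX8, an enzyme of the endoplasmic reticulum without selenium, rose from 2.12 ± 0.663 to 10.2 ± 2.29 TPM (1.85, adjusted p = 9.54e-04, corrected 1.18). GPX3 was not called, and GPX2, GPX5, GPX6 and GPX7 reached at most 0.15 TPM. Of 10 tested glutathione transferases 2 rose and 1 fell, and 1 and 1 after the correction (all genes: 39.1% and 9.7%, then 15.6% and 11.9%). The microsomal MGST1 rose from 168 ± 14.4 to 255 ± 10.5 TPM (0.60, corrected 0.35; adjusted p = 0.0577 after median centring). GSTO1 rose from 381 to 443.5 TPM (0.22), but after median centring it turned to -0.17 and was called lower (adjusted p = 0.0183). GSTZ1 fell from 51.1 to 41.3 TPM (-0.30), a call that ended after the correction (adjusted p = 0.156) and when OGT replicate 2 or 3, or control replicate 1 or 3, was left out (between 0.0536 and 0.0769).

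Glutaredoxins and glutathione carriers gave 3 higher and 2 lower of 9 tested, and 2 and 3 after the correction (all genes: 39.1% and 9.7%, then 15.6% and 11.9%). ABCC1, which exports glutathione and its conjugates, rose from 16.45 ± 1.06 to 29.1 ± 1.42 TPM (log2 change 0.79, corrected 0.47). Its relative ABCC4 rose from 1.35 to 3.05 TPM (0.80), a call lost without OGT replicate 1 or 3 (adjusted p of 0.0631 and 0.051). The mitochondrial GLRX2 fell from 38.8 to 26.7 TPM (-0.53, corrected -0.87) and GLRX5, of iron-sulfur cluster assembly, from 109 to 88.85 TPM (-0.29, corrected -0.64). GLRX2 lost its call when OGT replicate 1 or 2, or control replicate 1 or 3, was left out (adjusted p between 0.0576 and 0.0699) and GLRX5 without control replicate 3 (0.0587). GLRX3 rose from 58.75 to 77.3 TPM (0.39), was -0.26 after the correction, and lost its call when OGT replicate 1 or 3, or control replicate 2 or 3, was left out (0.0541 to 0.0594).

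Glutathione reductase draws on NADPH, and of 10 genes that supply it 6 rose and 1 fell, against 3 and 1 after the correction (all genes: 39.1% and 9.7%, then 15.6% and 11.9%). The malic enzyme gene ME1 rose by 1.05 on the log2 scale, from 3.77 ± 0.04 to 8.85 ± 0.272 TPM (adjusted p = 7.09e-04, corrected 0.36). NNT, the mitochondrial transhydrogenase, rose from 4.9 to 10.3 TPM (0.93) and MTHFD1, of folate metabolism, from 63.4 to 92.0 TPM (0.53). Neither was called after the correction (0.15, adjusted p = 0.536, and -0.06, adjusted p = 0.335). TKT, of the pentose phosphate pathway, fell from 1184 to 1062 TPM (-0.16, corrected -0.27; adjusted p = 0.0651 under quantile normalization).

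GPX4 is made only when selenocysteine can be inserted, and of 9 tested genes of that machinery 3 rose and 2 fell, and 1 rose and 2 fell after the correction (all genes: 39.1% and 9.7%, then 15.6% and 11.9%). TRIT1, which modifies the selenocysteine tRNA, stood at 2.65 ± 0.655 TPM in control and rose to 7.55 ± 1.72 TPM (log2 change 1.22, adjusted p = 0.0044, corrected 0.81). SECISBP2, which binds the selenocysteine insertion element, rose from 2.25 to 4.83 TPM (0.87) and LRP8, a selenoprotein P receptor, from 6.48 to 10.1 TPM (0.59). Both lost the call after the correction (0.29 and -0.01). SECISBP2 lost it also without OGT replicate 1 or 2 (adjusted p of 0.0726 and 0.0531), and LRP8 when any library except control replicate 2 was left out (0.0596 to 0.0827). PSTK, the kinase that prepares the tRNA for selenocysteine, fell from 3.16 ± 0.141 to 1.56 ± 0.258 TPM (-0.71, corrected -0.87), with no call without OGT replicate 2 (0.0539). RPL30, a ribosomal protein that also binds the insertion element, fell from 4206 ± 146 to 2925 ± 40.7 TPM (-0.52, adjusted p = 8.33e-05).

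Among 15 genes of NRF2 turnover, partners and classic targets 7 rose and 1 fell, and 4 rose and 2 fell after the correction (all genes: 39.1% and 9.7%, then 15.6% and 11.9%). TXNRD1, the cytosolic thioredoxin reductase, rose by 1.35 on the log2 scale, from 49.8 ± 4.21 to 128 ± 4.59 TPM (adjusted p = 5.28e-05, corrected 0.70). HMOX1, the haem oxygenase, rose from 266 ± 0.947 to 448 ± 14.3 TPM (0.75, corrected 0.81). SRXN1, the sulfiredoxin, rose from 37.2 ± 2.58 to 55.2 ± 1.91 TPM (0.56, corrected 0.38; adjusted p = 0.0784 after median centring). NQO1, the quinone reductase often read as an NRF2 target, fell from 1135 ± 65.2 to 904 ± 15.3 TPM (-0.33, adjusted p = 0.00144, corrected -0.83). These NRF2 targets changed in both directions beside the rise of NFE2L2.

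Of 10 genes in the ATF4 arm limma called 6 higher and 0 lower, and 3 and 0 after the correction (all genes: 39.1% and 9.7%, then 15.6% and 11.9%). At an unadjusted p below 0.05 the count of lower genes was also 0. In a list of 10 genes, 0 lower is near the share of all genes. ATF4 itself had 567 ± 13.2 TPM in control and 581.5 ± 9.01 TPM in OGT libraries, with no call (adjusted p = 0.409). EIF2AK4, the amino acid sensor kinase GCN2, rose from 6.62 ± 0.639 to 14.2 ± 1.41 TPM (log2 change 0.99, corrected 0.40 with adjusted p = 0.0548). The serine synthesis gene PSAT1 rose from 91.1 ± 1.83 to 153 ± 5.54 TPM (0.74, adjusted p = 9.12e-05, corrected 0.22). ASNS, the asparagine synthetase, rose from 135 ± 4.13 to 195.5 ± 7.95 TPM (0.535, corrected 0.15 with adjusted p = 0.073; 0.0817 after median centring).

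Several of these calls also ended under another scaling. Under quantile normalization and median centring alike this held for SLC7A6 (limma adjusted p = 0.214 and 0.256), GGCT, ABCC4 (0.172 and 0.183), GLRX3 (0.161 and 0.974), NNT (0.0587 and 0.0512), SECISBP2 (0.182 and 0.159) and LRP8 (0.438 and 0.419). MTHFD1 was lost after median centring (0.11) and ANPEP under quantile normalization (0.0507). With no filter on low values 7 of the named list genes were not called: SLC7A6, CBS, ANPEP, GSTZ1, GLRX3, GLRX2 and LRP8 (adjusted p between 0.0521 and 0.0806). ABCC4 and GSTO1 were not called after the correction (0.04, adjusted p = 0.894, and 0.05, 0.243).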

How the data were processed

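RNA sequencing libraries were made from total RNA of 786-O cells with a TruSeq RNA kit, per the labels' protocols. The authors deposited TPM per gene, 1 column per sample. The sources used here do not name the aligner, counter or annotation. GRCm38 and mm10, both mouse, are the builds in the submitters' processing notes, while the gene identifiers are human. Groups and replicate numbers came from the sample titles. The test covered 12645 genes that reached 1 TPM in 3 or more samples. It used limma 3.58.1 (R 4.3.3) on log2(TPM + 1) values (eBayes with trend and robust, two-sided, Benjamini-Hochberg, threshold 0.05). Positions, GC content and length came from GENCODE release 29 (97.7% of tested genes). The correction removed from each library a natural spline on GC content and on log2 length, with 4 degrees of freedom each. Ratios used SciPy 1.17.1. Named genes are the 10 axis genes, OGT and the nearest profiles of SLC7A11 and GPX4. In each list up to 3 called genes per direction with the smallest adjusted p were also named. CHAC2, GPX3, CTH, ATF4 and the markers were added as background. Of the cell type markers, 2 are not reported here. Members and lists were chosen with earlier results of these data known. The test was tried on simulated data.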

Additional observations from a re-analysis of the deposited data

How the results depend on the processing

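Depth is unknown in TPM, so how far low genes such as SLC7A11, GCLC and NFE2L2 are limited by counting cannot be stated. SLC7A11 and GPX4 kept their direction and call under every alternative run, with log2 changes from 0.71 to 1.725 and from -1.055 to -0.38, as did GSS (-0.68 to -0.23). Of the 10 axis genes 5 were called higher as deposited and 3 with the GC and length trend removed, alone or with a replicate block. Replicates share a number, and deviations of same-numbered libraries correlated at -0.0194, 0.00264 and 0.0166, so they were not treated as pairs; 1 of the 6 libraries correlated best with its own number. A replicate block moved the calls over all genes from 6168 to 5473, and among named genes it ended those of KEAP1 (adjusted p = 0.065), ANPEP (0.0616), GSTZ1 (0.0661) and SECISBP2 (0.0513). With block and correction together NFE2L2 (0.0665), KEAP1 (0.054), GSR (0.0786) and GCLM (0.0608) were not called, while GCLC was (0.0316). Corrected calls of GPX1 (0.118), ME1 (0.076), MGST1 (0.0726), PSAT1 (0.0649), SELENOO (0.0518), CBS (0.0509) and PSTK (0.0502) also ended with the block. With no filter on low values KEAP1 was not called (0.09). Direction turned for SLC3A2 after median centring (-0.145), for CHAC1 after median centring (-0.172), and for GCLM after quantile normalization (-0.051), median centring (-0.09) and the correction with or without the block (-0.447). Among the other named genes it turned after median centring for ANPEP (-0.229), GSTO1 (-0.171) and SELENOO (-0.069). ANPEP and GSTO1 were called lower in that fit (limma adjusted p = 0.00739 and 0.0183). After the correction, with or without the block, direction turned for ANPEP (-0.01), GLRX3 (-0.256), MTHFD1 (-0.059), LRP8 (-0.006) and SELENOF (-0.061).

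Genes of the other lists called higher numbered 43 as deposited, 25 after quantile normalization, 13 after median centring, 21 after the correction and 13 with correction and block. Those called lower went from 15 to 23 after quantile normalization and 40 after median centring. Over all genes, 6168 calls became 3396 after the correction and 2481 with the block added. Higher calls went from 4941 to 2558 (quantile normalization), 1937 (median centring), 1922 (correction) and 1365 (correction and block), and lower calls from 1227 to 2245 and 3066 under the first 2. The 5 ratios kept their direction in every fit, where leaving out a library allows no exact p below 0.2 and pairing by number none below 0.25. A test on counts was not run because the values are TPM. The cause of these differences was not tested.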

Other observations

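Selenoproteins draw on the insertion machinery that GPX4 needs. Of 13 tested ones placed in none of the lists above (which hold TXNRD1, GPX1, GPX3 and SEPHS2) 4 rose and 4 fell. After the correction 3 rose and 3 fell (all genes: 39.1% and 9.7% before it, 15.6% and 11.9% after it). SELENON, of the endoplasmic reticulum, rose from 25.2 ± 0.265 to 61.6 ± 5.79 TPM (log2 change 1.25, limma adjusted p = 9.47e-05, corrected for GC content and length 1.07). SELENOF rose from 35.6 ± 1.61 to 47.3 ± 1.6 TPM (0.40, corrected -0.06) and SELENOO from 31.1 ± 1.03 to 39.1 ± 1.67 TPM (0.32, corrected 0.35, and -0.07 after median centring). SELENOW fell from 191 ± 8.61 to 121 ± 7.53 TPM (-0.65, adjusted p = 3.11e-04, corrected -0.39). SELENOH fell from 110 ± 4.6 to 74.5 ± 8.27 TPM (-0.555, corrected -0.45). TXNRD2, the mitochondrial thioredoxin reductase, fell from 84.4 ± 4.3 to 63.6 ± 4.45 TPM (-0.40, corrected -0.49). SELENOP, DIO1, DIO2 and DIO3 never exceeded 0.16 TPM. The calls of SELENOF and SELENOO ended under quantile normalization (adjusted p = 0.103 and 0.623) and median centring (0.927 and 0.491), and that of SELENOF after the correction (0.509).

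The genes whose profile over the 6 libraries was nearest to that of SLC7A11, by Euclidean distance between log2(TPM + 1) values centred per gene, were LAMP2 (distance 0.0866), CNN3 (0.107) and DDX21 (0.11), against a median of 1.47 over all genes. LAMP2, a lysosomal membrane protein gene, was 13.8 ± 1.04 and 37.6 ± 1.14 TPM in control and OGT libraries. Nearest to GPX4 were LSM7 (0.0749), C3 (0.08) and BIN1 (0.0816), against a median of 1.37. LSM7, of an RNA-binding complex, was 310 ± 8.27 and 194 ± 1.03 TPM. These distances are descriptions over 6 libraries of 2 groups, where the gap between the groups sets most of each profile.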
